A study of Mus musculus with 12 samples.

Results

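Bdh1, Oxct1 and Acat1 encode the mitochondrial enzymes that break ketone bodies down, and their transcripts were followed in mouse quadriceps muscle. The members were every probe set whose array annotation gave exactly one of these 3 symbols, which found 9 of the 45037 probe sets other than controls: 2 for Bdh1, 4 for Oxct1 and 3 for Acat1. Of these 9, 8 passed a filter on low signal, and all 3 genes were among the 12771 tested. C57Bl/6J mice had been treated for 6 days with AICAR at 250 mg/kg/day, with GW1516 at 5 mg/kg/day, with GW1516 plus AICAR at those doses, or with vehicle. The labels give no genotype other than the strain, and neither age nor sex. AICAR is an adenosine analogue taken up by cells that activates the AMP-activated protein kinase, and GW1516 is a drug-like ligand that switches on the nuclear receptor PPARδ. Each group had 3 Affymetrix arrays, and each array carried RNA pooled from 3 mice, and the labels do not say whether pools shared animals, so a p-value here reflects only how far such pools differ.

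Ketone bodies are made in the liver during fasting or fat feeding and are burned in heart, brain and skeletal muscle. In the mitochondria of the using tissue, β-hydroxybutyrate dehydrogenase (Bdh1) oxidises β-hydroxybutyrate to acetoacetate, and succinyl-CoA:3-oxoacid CoA transferase (Oxct1) then moves CoA from succinyl-CoA onto acetoacetate. Acetoacetyl-CoA thiolase (Acat1) splits the product into acetyl-CoA for the TCA cycle, and it also works in isoleucine breakdown. Oxct1 is the step that the liver lacks. In mouse muscle, endurance training and the coactivator PGC-1α are known to raise these enzymes.

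PPARδ binds DNA with the retinoid receptor RXR at a direct repeat of AGGTCA with 1 base between the copies, so the bases before the annotated gene starts are shown for the members that RefSeq's promoter table holds, in GRCm38.p6. It holds 1 start for Oxct1 and 2 for Bdh1, and Acat1 has no entry there. Both sequences are on the plus strand, 5′ to 3′, and end at the base before the start. Capitals mark a match to the half-site variant GGGTCA, read as TGACCC where it lies on the other strand.
Oxct1, chr15:4026178-4026427: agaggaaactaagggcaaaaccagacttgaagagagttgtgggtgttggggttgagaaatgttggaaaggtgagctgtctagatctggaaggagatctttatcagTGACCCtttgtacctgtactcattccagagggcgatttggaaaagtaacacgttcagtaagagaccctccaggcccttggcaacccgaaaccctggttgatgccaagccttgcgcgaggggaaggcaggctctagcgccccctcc
Bdh1, first start, chr16:31422047-31422296: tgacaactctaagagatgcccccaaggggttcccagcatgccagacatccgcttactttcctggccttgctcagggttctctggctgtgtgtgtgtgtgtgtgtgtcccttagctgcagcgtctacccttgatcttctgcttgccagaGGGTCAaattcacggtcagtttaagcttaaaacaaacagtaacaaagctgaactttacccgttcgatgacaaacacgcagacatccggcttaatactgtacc
The Oxct1 match lies 145 to 140 bases before the start on the minus strand, and the Bdh1 match 102 to 97 bases before it on the plus strand. GGGTCA on either strand was found in 11.6% of the 32851 windows of this length in the table. The spaced repeat of AGGTCA was found in 0.0335% of windows, the single half-site AGGTCA in 14.0% and the ERR element TCAAGGTCA, which contains that half-site, in 0.387%. None of these 3 was found in the 3 windows of Bdh1 and Oxct1. Of 2 genes known to respond to PPAR agonists, the window of Ucp3, a mitochondrial carrier, held 2 single half-sites and no spaced repeat, and that of Acadl, an enzyme of fatty acid oxidation, held neither. These are matches of letters in a window and were not tested as binding sites.

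The deposited values are MAS5 signals, linear brightness values scaled by the authors so that every array has a trimmed mean of 200. They were compared on the log2 scale, where a difference of 1 is a doubling, with limma's moderated test and Benjamini-Hochberg adjustment over all genes. A gene is said to be called at an adjusted p below 0.05. Median signals of the arrays ran between 45.4 and 54.2, and correlations between arrays over the genes tested between 0.947 and 0.968. GW1516 replicate 2 lay far from the rest along principal component 1, where it scored 45.9 and the other arrays scored -18.7 to 6.77. The number of arrays limits the precision, and the median standard error of a difference over all genes was 0.19. Signals of different probe sets depend on their probes, so levels are compared only within a probe set.

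None of the 3 members was called in any comparison. With vehicle as the control, 0.00783% of genes were called after AICAR, 0.094% after GW1516 and 0.258% after GW1516 plus AICAR. At an unadjusted p below 0.05, 1 of 3 members, Oxct1, passed for GW1516, where 9.64% of all genes did, and 0 of 3 passed for AICAR (6.93% of genes) or for the combination (10.9% of genes). Their median log2 difference from vehicle was -0.031 after AICAR, -0.37 after GW1516 and 0.064 after the combination, beside medians over all genes of 0.0090, -0.014 and -0.0048. The combination was also compared with AICAR, where 0.0313% of genes were called, and with GW1516, and AICAR with GW1516, where 0% were called. At an unadjusted p below 0.05, 0 of 3 members passed in each of those last 3 comparisons, beside 7.32%, 10.4% and 9.15% of all genes. In muscle tissue, fewer cells of a type and less RNA per cell cannot be told apart.

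**Figure D1:**
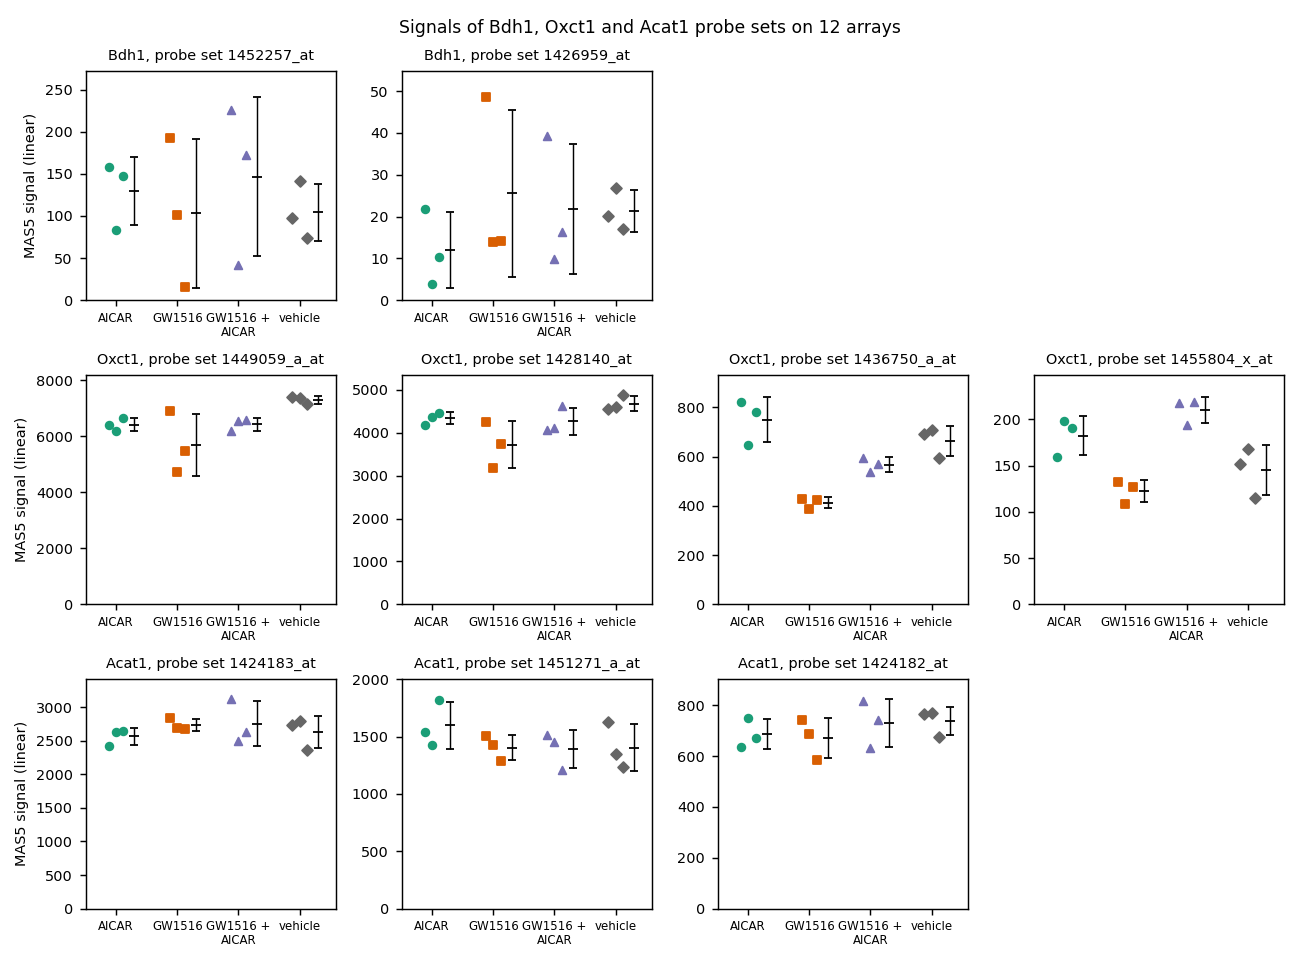
MAS5 signal (linear axis from 0) of each of the 9 probe sets on the 12 arrays, by group; horizontal bars with whiskers give the mean ± SD of 3 arrays. GW1516 arrays lie below the vehicle arrays on 3 of the 4 Oxct1 probe sets. Counted on the brightest probe set of each gene, this separation was found for 7.91% of all genes. Bdh1 1452257_at spreads widely inside the GW1516 and combination groups, and Acat1 groups overlap vehicle on all 3 probe sets.

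Bdh1 carries out the first step of ketone body use, and its signals varied more between arrays of 1 group than between groups. Its brighter probe set, 1452257_at, had signals of 158, 83.2 and 148 after AICAR, 192, 101 and 15.6 after GW1516, and 226, 41.7 and 172 after the combination, against 98.0, 141 and 74.0 with vehicle. The GW1516 and combination groups each held both high and low arrays, and every pair of groups overlapped. Mean signals were 129.6 ± 40.4 after AICAR, 103 ± 88.3 after GW1516 and 146 ± 94.6 after the combination, against 104 ± 33.9 with vehicle (SD, n = 3 arrays each). The log2 difference from vehicle was 0.31 ± 0.76 after AICAR (SE, adjusted p = 0.957), -0.58 ± 0.76 after GW1516 (adjusted p = 0.838) and 0.22 ± 0.76 after the combination (adjusted p = 0.941).

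On the log2 scale the order of the Bdh1 means, from high to low, was AICAR, GW1516 plus AICAR, vehicle and GW1516, and no neighbours in it differed beyond their spread. The 95% interval of the difference after GW1516 ran from -2.21 to 1.04, so sizeable differences in either direction fall inside it. Single arrays set the direction: without GW1516 replicate 3, the array with the lowest signal, the difference was 0.47, and without GW1516 replicate 1 it was -1.34. For the combination it was -0.25 without replicate 1 of that group and 0.97 without its replicate 2. The interaction of the drugs, which is the difference of the combination from vehicle less those of both single drugs, was 0.49 ± 1.07 (adjusted p = 0.941). The other Bdh1 probe set, 1426959_at, fell short of the filter signal of 28.2 and was not tested. Its signals were 3.88 to 21.7 after AICAR, 13.9 to 48.6 after GW1516 and 9.80 to 39.3 after the combination, against 17.0 to 26.9 with vehicle, and its correlation with the brighter probe set over the 12 arrays was 0.45.

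The 5 genes whose log2 signals had the highest Pearson correlation with those of Bdh1 over the 12 arrays were Myh1 and Myoz2, each at 0.94, Mb at 0.94, Myh2 at 0.92 and Atp1b1 at 0.90, and no other of 12770 genes exceeded 0.9. Myh1 and Myh2 encode the myosin heavy chains of fast IIx and IIa fibres, Mb encodes myoglobin, the oxygen store of oxidative fibres, Myoz2 a Z-disc protein of slow fibres and heart, and Atp1b1 a subunit of the sodium pump. Spearman's rho was 0.82 for Myh1, 0.91 for Myoz2 and Mb, 0.92 for Myh2 and 0.81 for Atp1b1. Without the 2 arrays whose Bdh1 signal lay farthest from the Bdh1 median, the Pearson correlation was 0.76 for Myh1, 0.88 for Myoz2, 0.89 for Mb, 0.87 for Myh2 and 0.69 for Atp1b1.

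This likeness lay inside the groups. After the group means were subtracted, the Bdh1 correlation was 0.97 with Mb, 0.96 with Myoz2, 0.94 with Myh1, 0.92 with Myh2 and 0.90 with Atp1b1. Myh2 had signals of 3915, 3430.2 and 6661 after AICAR, 6894, 2437 and 1059.6 after GW1516, and 11654, 1952 and 6820.2 after the combination, against 2757, 5631 and 2981 with vehicle. The array with the highest Myh2 signal was also the highest for Bdh1 in the GW1516, combination and vehicle groups, namely replicate 1, replicate 1 and replicate 2. Mb ordered the 3 arrays as Bdh1 did in 3 of the 4 groups. Mb had signals of 13631, 9193 and 5816 after GW1516 and of 16519, 9198 and 15612 after the combination.

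The other markers of muscle fibres gave a wide range of values. Over the 12 arrays the Bdh1 correlation was 0.20 with Myh4, the myosin of the fastest IIb fibres, 0.18 with the muscle creatine kinase Ckm and 0.042 with skeletal actin, Acta1. Without the 2 farthest arrays these were 0.74, 0.59 and 0.52, beside 0.76 for Myh1, 0.69 for Atp1b1, 0.87 for Myh2, 0.88 for Myoz2 and 0.89 for Mb. The gap to the genes named above thus narrowed without 2 arrays. Myh4 then lay between Atp1b1 and Myh1, while Myh2, Myoz2 and Mb stayed higher. Among slow fibre markers other than Myoz2, the Bdh1 correlation over the 12 arrays lay between -0.29 for Tnni1, the slow troponin I, and 0.73 for Myl2, a slow myosin light chain. It was -0.23 with Adipoq, a fat cell hormone, and 0.097 without the 2 farthest arrays. Points share each array's RNA pool and scaling, and genes are not independent replicates. Whether the part of the quadriceps sampled differed between pools was not tested.

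**Figure D2:**
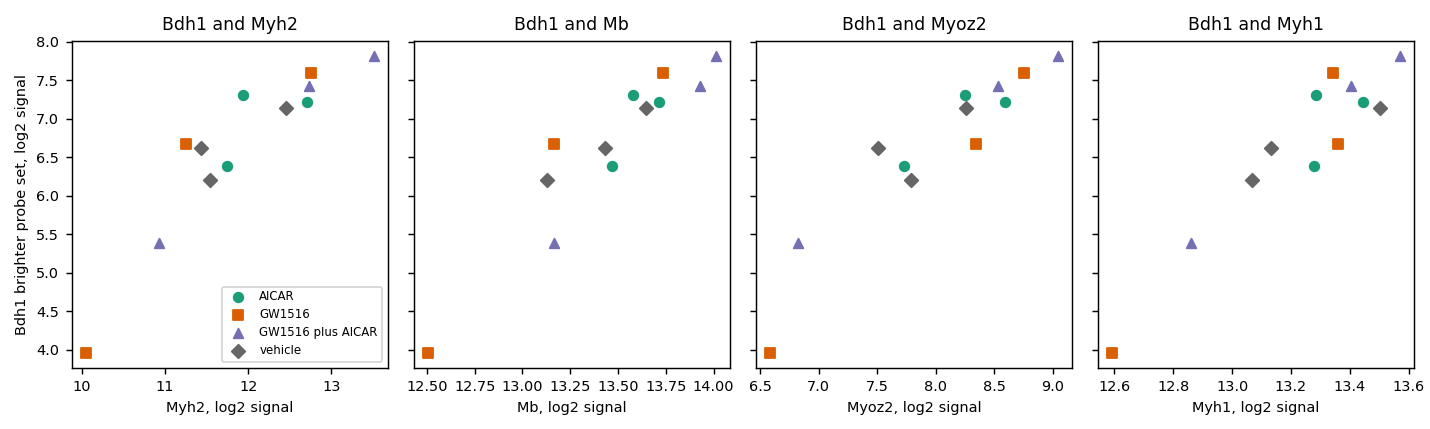
Bdh1 log2 signal (probe set 1452257_at) against the log2 signal of Myh2, Mb, Myoz2 and Myh1 on the 12 arrays, 1 point per array. The GW1516 array with the lowest Bdh1 signal has the lowest signal of all 4 genes, and combination replicate 1 has the highest Bdh1 signal and the highest of all 4.

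Oxct1 carries out the step that commits acetoacetate to oxidation, and its brightest probe set was lower in every treated array than in every vehicle array. The signals of 1449059_a_at were 6402, 6185 and 6631 after AICAR, 6896, 4707 and 5478 after GW1516, and 6167, 6521 and 6563 after the combination, against 7399, 7349.95 and 7130.1 with vehicle. The lowest vehicle array thus lay above the highest treated array, which was GW1516 replicate 1. Means were 6406 ± 223 after AICAR, 5693 ± 1111 after GW1516 and 6417 ± 218 after the combination, against 7293 ± 143 with vehicle (SD, n = 3 arrays each). Groups that did not overlap, with treated arrays below, were found for 9.03% of all genes after AICAR, 7.91% after GW1516 and 9.69% after the combination. These shares, and the like ones below, were counted on the brightest probe set of each gene, and the 3 comparisons share their vehicle arrays. The share of genes with every treated array below every vehicle array was not counted.

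The largest of the Oxct1 differences was that of GW1516, at -0.37 ± 0.11 on the log2 scale (SE, 1.30-fold lower, 95% interval -0.60 to -0.15). It did not pass adjustment over all genes (limma, adjusted p = 0.311), and it ranked 137 of 12771 genes by p. The difference was -0.19 ± 0.11 after AICAR (adjusted p = 0.757, interval -0.42 to 0.040) and -0.18 ± 0.11 after the combination (adjusted p = 0.556, interval -0.41 to 0.043). Over 12 alternative settings the GW1516 difference lay between -0.41 and -0.34, with adjusted p between 0.177 and 0.680. It was -0.52 without GW1516 replicate 1, the one omission under which Oxct1 was called (adjusted p = 0.0132), and -0.25 without GW1516 replicate 2 (adjusted p = 0.586), the array that stood apart.

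From high to low the Oxct1 means were ordered vehicle, GW1516 plus AICAR, AICAR and GW1516. The combination differed from AICAR by 0.0026 ± 0.11 (adjusted p = 0.996), and AICAR from GW1516 by 0.19 ± 0.11 (adjusted p = 0.590), with overlapping arrays in both. The combination differed from GW1516 by 0.19 ± 0.11 (adjusted p = 0.542), again with overlap. The interaction was 0.38 ± 0.15 (adjusted p = 0.723), and 6.64% of all genes had an unadjusted p below 0.05 for it. A value above 0 means that the combination lay above the sum of the differences of the single drugs.

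The other 3 Oxct1 probe sets were described with a fit over all 27022 probe sets past the filter, in which 0.0407% were called for GW1516, 0.0111% for AICAR and 0.292% for the combination, each against vehicle, and 0% for AICAR or the combination against GW1516. The suffix _a_at marks probes that match several transcripts of 1 gene, and _x_at a set with probes that can also match other sequences. Probe set 1428140_at had signals of 4183, 4355 and 4465 after AICAR, 4249, 3171 and 3742 after GW1516, and 4057, 4119 and 4621 after the combination, against 4549, 4608 and 4867 with vehicle. The AICAR and GW1516 arrays lay below the vehicle arrays, as in 9.03% and 7.91% of all genes, and 1 combination array did not. Its difference after GW1516 was -0.34 ± 0.096 (adjusted p = 0.329), and it followed the brightest probe set over the 12 arrays with a Pearson correlation of 0.93.

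Probe set 1436750_a_at gave the clearest separation of GW1516 from vehicle among the 4. Its signals were 821, 648 and 779 after AICAR, 429, 386 and 424 after GW1516, and 596, 536 and 569.6 after the combination, against 691, 706 and 595 with vehicle. The 3 GW1516 arrays lay together below all other arrays, GW1516 replicate 1 included. GW1516 arrays lay below all vehicle arrays in 7.91% of all genes. The GW1516 difference from vehicle was -0.68 ± 0.11 (1.60-fold lower), which stood just outside the threshold (adjusted p = 0.0532). It was past the threshold under 4 of 10 alternative settings, the adjusted p ranging from 0.0369 to 0.353, and between -0.76 and -0.63 with each array left out. AICAR lay above GW1516 by 0.85 (adjusted p = 0.0586) and the combination above GW1516 by 0.46 (adjusted p = 0.238), in each case with no overlap, as in 8.15% and 6.77% of all genes. AICAR differed from vehicle by 0.17 (adjusted p = 0.779) and the combination by -0.22 (adjusted p = 0.478), both with overlap. This probe set was singled out after its values were seen.

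Probe set 1455804_x_at had signals of 159, 198 and 190.2 after AICAR, 132, 109 and 127 after GW1516, and 217, 194 and 218 after the combination, against 152, 168 and 115 with vehicle. All combination arrays lay above all vehicle arrays, as in 8.9% of all genes, while the other 2 treated groups overlapped vehicle. Its difference from vehicle was 0.34 after AICAR (adjusted p = 0.708), -0.23 after GW1516 (adjusted p = 0.726) and 0.55 ± 0.17 after the combination (adjusted p = 0.239). The 4 probe sets thus shared a sign below 0 for GW1516, at -0.37, -0.34, -0.68 and -0.23, without a call. For AICAR 2 were below 0 and 2 above, and for the combination 3 were below and 1 above. When its probe sets were averaged in place of taking the brightest, Oxct1 differed from vehicle by 0.055 after AICAR and by 0.0017 after the combination, and which transcripts each probe set reads was not tested.

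**Figure D3:**
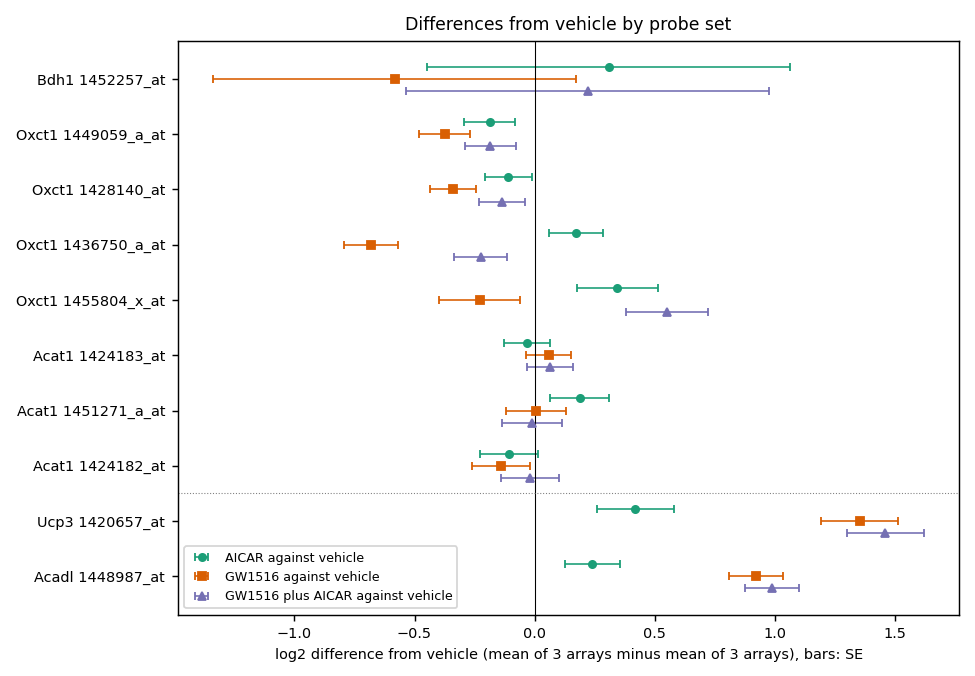
Log2 difference from vehicle (3 arrays against 3, whiskers ± SE) for the 8 member probe sets past the filter and, below the dotted line, for Ucp3 and Acadl. All 4 Oxct1 points for GW1516 lie below 0 while those for AICAR and the combination lie on both sides; Ucp3 and Acadl lie at 1.35 and 0.92 after GW1516.

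For comparison, 2 genes known to respond to PPAR agonists were called in the same arrays. Ucp3 rose by 1.35 ± 0.16 after GW1516 (adjusted p = 0.00583) and by 1.46 ± 0.16 after the combination (adjusted p = 0.000996). Acadl, the long-chain acyl-CoA dehydrogenase of fatty acid oxidation, rose by 0.92 ± 0.11 after GW1516 (adjusted p = 0.00583) and by 0.99 ± 0.11 after the combination (adjusted p = 0.00127). After AICAR the differences were 0.42 ± 0.16 for Ucp3 (adjusted p = 0.643) and 0.24 ± 0.11 for Acadl (adjusted p = 0.726). The GW1516 intervals of Oxct1 and Acat1 end below these differences of Ucp3 and Acadl. The Bdh1 interval ends at 1.04, above the Acadl difference of 0.92 and below the Ucp3 difference of 1.35.

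The 5 genes most like Oxct1 over the 12 arrays were Aga at 0.97, Cnih1 at 0.96, Golim4 at 0.93, Ndufa2 at 0.92 and Hmgcs1 at 0.91, among 10 of 12770 genes above 0.9. Aga encodes a lysosomal enzyme of glycoprotein breakdown, Cnih1 a cargo receptor of the secretory pathway, Golim4 a Golgi membrane protein, Ndufa2 a subunit of respiratory complex I and Hmgcs1 the cytosolic HMG-CoA synthase of sterol synthesis. Without the 2 arrays farthest from the Oxct1 median the values were 0.93 for Aga and Cnih1, 0.75 for Golim4, 0.66 for Ndufa2 and 0.72 for Hmgcs1. The SD of the Oxct1 log2 signal was 0.28 in the GW1516 group, against 0.050 after AICAR, 0.049 after the combination and 0.028 with vehicle. The 2 arrays left out were GW1516 replicates 2 and 3. Without them the values of Golim4, Ndufa2 and Hmgcs1 fell, while those of Aga and Cnih1 changed little. With Rxra, the nuclear receptor partner of PPARδ, the Oxct1 correlation was -0.93, and it was -0.64 without the 2 farthest arrays. With markers of muscle fibres the Oxct1 values depended on the arrays and on the group means. After subtraction of group means, the 10 correlations were 0.045 for Myh1 and 0.39 for Myh2. Those of the other markers lay between 0.82 for Ckm and 0.95 for Atp2a1, the calcium pump of fast fibres. For Atp2a1 the correlation was 0.19 over the 12 arrays as measured. It was -0.39 without the 2 farthest arrays, where all 10 were negative.

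Acat1, the last step, had nearly level signals. Its brightest probe set, 1424183_at, had signals of 2422, 2636 and 2650.5 after AICAR, 2834, 2686 and 2676 after GW1516, and 3130.03, 2495 and 2638 after the combination, against 2739.7, 2793 and 2358 with vehicle. Each treated group overlapped vehicle, and the AICAR arrays lay below all GW1516 arrays, as they did for 6.48% of all genes. Means were 2569 ± 128 after AICAR, 2732 ± 88.6 after GW1516 and 2754 ± 333 after the combination, against 2630.2 ± 237 with vehicle (SD, n = 3 arrays each). The difference from vehicle was -0.031 ± 0.094 after AICAR (adjusted p = 0.969), 0.058 ± 0.094 after GW1516 (adjusted p = 0.875) and 0.064 ± 0.094 after the combination (adjusted p = 0.841).

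The 95% intervals of these Acat1 differences lay between -0.23 and 0.27, so larger shifts on the log2 scale fall outside them. From high to low the order was the combination, GW1516, vehicle and AICAR, and no neighbours in it differed beyond their spread. AICAR differed from GW1516 by -0.089 ± 0.094 (adjusted p = 0.789), and the interaction was 0.036 ± 0.13 (adjusted p = 0.968). The signs of the Acat1 differences flipped with the scaling or with the choice of probe sets. Probe set 1451271_a_at differed from vehicle by 0.19 after AICAR, 0.0063 after GW1516 and -0.010 after the combination, and 1424182_at by -0.11, -0.14 and -0.020 in the same order. All groups overlapped vehicle on these 2 probe sets as well, and their lowest adjusted p in a comparison with vehicle was 0.771.

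The 5 genes most like Acat1 were Tenm2 at 0.86, Ppara at 0.85, Rnf113a1 at 0.82, Adsl at 0.81 and Idh2 at 0.81, and 0 of 12770 genes exceeded 0.9. Tenm2 encodes a cell adhesion protein, Ppara the fatty acid receptor PPARα, Adsl an enzyme of purine synthesis and Idh2 the mitochondrial NADP-dependent isocitrate dehydrogenase. Acat1 ordered the 3 arrays as Ppara did in 3 of the 4 groups. Ppara was read on its brightest probe set, with a mean signal of 113 and a combination difference from vehicle of 0.22. Its other probe sets, at 110 and 93.8, differed by 0.86 and -1.11, and their likeness to Acat1 was not tested. On the brightest probe sets, the correlation of Bdh1 over the 12 arrays was 0.31 with Oxct1 and 0.36 with Acat1, and that of Oxct1 with Acat1 was -0.080. Such values depend on the probe set: Bdh1 1452257_at stood at 0.71 with Acat1 1424182_at and at 0.34 with Acat1 1451271_a_at. The 3 Acat1 probe sets correlated with each other at only 0.24, 0.66 and 0.099. The 3 enzymes act in sequence. The genes named for each member were picked as the closest of 12770, so the closeness of member pairs cannot be judged against them.

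Among genes of ketone body synthesis and cytosolic use, 1 of 8 listed was tested. This was Aacs, the cytosolic acetoacetyl-CoA synthetase that turns acetoacetate toward lipid synthesis. It had signals of 96.2, 162 and 260.04 after AICAR, 115, 158 and 153 after GW1516, and 192, 124 and 104 after the combination, against 99.6, 102 and 74.9 with vehicle. All GW1516 and all combination arrays lay above the vehicle arrays, with differences of 0.62 ± 0.32 (adjusted p = 0.547) and 0.57 ± 0.32 (adjusted p = 0.543), as in 6.3% and 8.9% of all genes, and the AICAR difference was 0.80 ± 0.32 (adjusted p = 0.652). Hmgcll1, Bdh2 and Oxct2a were below the filter, at mean signals of 17.7, 17.4 and 21.8. The other listed genes were not analysed here.

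Fat cell markers ordered the arrays as Aacs did in the AICAR and combination groups and not in the other 2. The median difference of 9 adipocyte markers from the vehicle mean, by replicate, was -0.10, 1.01 and 1.70 after AICAR, 0.62, 0.19 and 1.10 after GW1516, and 1.35, 0.50 and -0.13 after the combination, against 0.47, -0.45 and -0.15 with vehicle. GW1516 replicate 2 was thus lowest for the markers and highest for Aacs in its group. Over the group the adipocyte median was 0.97 after AICAR, 0.69 after GW1516 and 0.61 after the combination, and 0 of 9 markers were called in each comparison. Their summed signals ran between 20170 and 37174 after AICAR, 16315 and 30666 after GW1516, and 18391 and 33646 after the combination, against 17389 and 25855 with vehicle. The part of fat cells in the Aacs difference was not tested.

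Transport of ketone bodies into cells runs through the monocarboxylate carriers. Of 7 listed genes 5 were tested, and 0 of 5 were called in the comparisons with vehicle, with medians of 0.025 after AICAR, -0.13 after GW1516 and 0.18 after the combination. Slc16a1, the carrier MCT1 that takes up ketone bodies and lactate, differed by -0.0083 ± 0.18 after AICAR, -0.29 ± 0.18 after GW1516 (adjusted p = 0.624) and -0.18 ± 0.18 after the combination. Slc16a3, the lactate exporter MCT4, differed by 0.27 ± 0.12 after GW1516 (adjusted p = 0.514). Emb and Bsg encode the chaperones that bring the carriers to the membrane. Emb differed by 0.34 ± 0.29 after AICAR, -0.52 ± 0.29 after GW1516 and 0.43 ± 0.29 after the combination, and Bsg by -0.066 ± 0.11, -0.13 ± 0.11 and 0.18 ± 0.11 in the same order. Slc16a7 and Slc5a8 were below the filter.

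All 7 thiolase and β-oxidation genes listed were tested, and 0 of 7 were called against vehicle. Their median difference was -0.049 after AICAR, 0.028 after GW1516 and 0.16 after the combination, where 6 of 7 were above 0. Hadh, the short-chain 3-hydroxyacyl-CoA dehydrogenase, had signals of 8488, 8188 and 8836 after the combination, against 7126, 7239.7 and 7243 with vehicle. These groups did not overlap, as in 8.9% of all genes with the combination above, and the difference was 0.24 ± 0.083 (adjusted p = 0.314). Hadhb, the thiolase subunit of the trifunctional protein, differed by 0.17 ± 0.075 after GW1516 on its brightest probe set (adjusted p = 0.501). Its other probe sets, with mean signals of 2173 and 61.4, differed by -0.15 and 0.36, so the sign depended on the probe set. Hadha, the partner of Hadhb, differed by -0.19 ± 0.092 after AICAR (adjusted p = 0.730). After the combination Acaa2, the medium-chain mitochondrial thiolase, differed by 0.27 ± 0.14 on its brightest probe set (adjusted p = 0.505). Its other probe sets, with mean signals of 1347 and 1144, differed by -0.61 and 0.20, so the sign was not shared. After AICAR the brightest differed by -0.20 ± 0.14 (adjusted p = 0.803), and the others by -0.49 and -0.23.

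TCA cycle genes, only some of which make or use succinyl-CoA or acetyl-CoA as Oxct1 and Acat1 do, stood close to vehicle. Of 11 listed 10 were tested and 0 of 10 were called. Below 0 were 10 of 10 after AICAR, 9 of 10 after GW1516 and 4 of 10 after the combination, beside 48.0%, 52.9% and 50.9% of all genes. The medians were small, at -0.039, -0.12 and 0.014. Dlst, the succinyltransferase of the oxoglutarate dehydrogenase complex, differed by -0.20 ± 0.087 after AICAR (adjusted p = 0.710), -0.18 ± 0.087 after GW1516 (adjusted p = 0.535) and -0.14 ± 0.087 after the combination (adjusted p = 0.593). Its dimmer probe sets past the filter, with mean signals of 218 and 126, differed by 0.14 and 0.039 after AICAR. They differed by -0.087 and -0.094 after GW1516, and by 0.17 and -0.16 after the combination. Suclg1, a subunit of succinyl-CoA ligase, differed by -0.13 ± 0.079 after AICAR (adjusted p = 0.759), and its partner subunit Suclg2 by -0.15 ± 0.096 after GW1516 (adjusted p = 0.627). The list's median was 0.10, -0.25 and -0.11 on GW1516 replicates 1, 2 and 3, which is the array order of the brightest Oxct1 probe set in this group.

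Among regulators of these enzymes 10 of 11 listed were tested, and 1 was called, after the combination. Foxo1, a transcription factor active in fasting, had signals of 645, 709 and 667 after AICAR, 307, 660.2 and 532 after GW1516, and 763, 909.8 and 717 after the combination, against 262, 254 and 276 with vehicle. It rose by 1.59 ± 0.20 after the combination (adjusted p = 0.00405), and its difference was 1.35 ± 0.20 after AICAR (adjusted p = 0.0561) and 0.85 ± 0.20 after GW1516 (adjusted p = 0.252). Ppard, the target of GW1516, had signals of 293, 412.5 and 280.2 after GW1516, against 254, 245 and 247 with vehicle, a difference of 0.38 ± 0.16 (adjusted p = 0.490). The GW1516 arrays lay above vehicle, as in 6.3% of all genes, with the highest value on the array that stood apart. Ppard differed by 0.0069 ± 0.16 after AICAR and 0.045 ± 0.16 after the combination. Rxra differed by 0.24 ± 0.091 after GW1516 (adjusted p = 0.458).

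The coactivator and receptor genes tied to ketone enzymes in muscle were not called. Ppargc1a, which encodes PGC-1α, differed by 0.21 ± 0.10 after AICAR (adjusted p = 0.730), 0.065 ± 0.10 after GW1516 and -0.039 ± 0.10 after the combination on its brightest probe set, and its 4 other probe sets past the filter lay between -0.39 and -0.099 after GW1516. Ppargc1b, its relative, differed by -0.40 ± 0.15 after the combination (adjusted p = 0.337), with all arrays below vehicle, as in 9.69% of all genes. Esrra, the receptor ERRα that works with PGC-1α, differed by 0.12 ± 0.15, -0.11 ± 0.15 and 0.27 ± 0.15 after AICAR, GW1516 and the combination. Its dimmer probe set, with a mean signal of 118, differed by 0.43, 0.31 and 0.43, so the sign after GW1516 depended on the probe set. Pparg, the fat cell receptor PPARγ, differed by 1.45 ± 0.54 after AICAR (adjusted p = 0.634), 0.90 ± 0.54 after GW1516 and 1.05 ± 0.54 after the combination. The adipocyte medians given beside Aacs lie in the same direction as Pparg, and their part in it was not tested. The list's medians were 0.058, 0.090 and 0.095 in the same order of groups, and Fgf21 was below the filter.

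**Figure D4:**
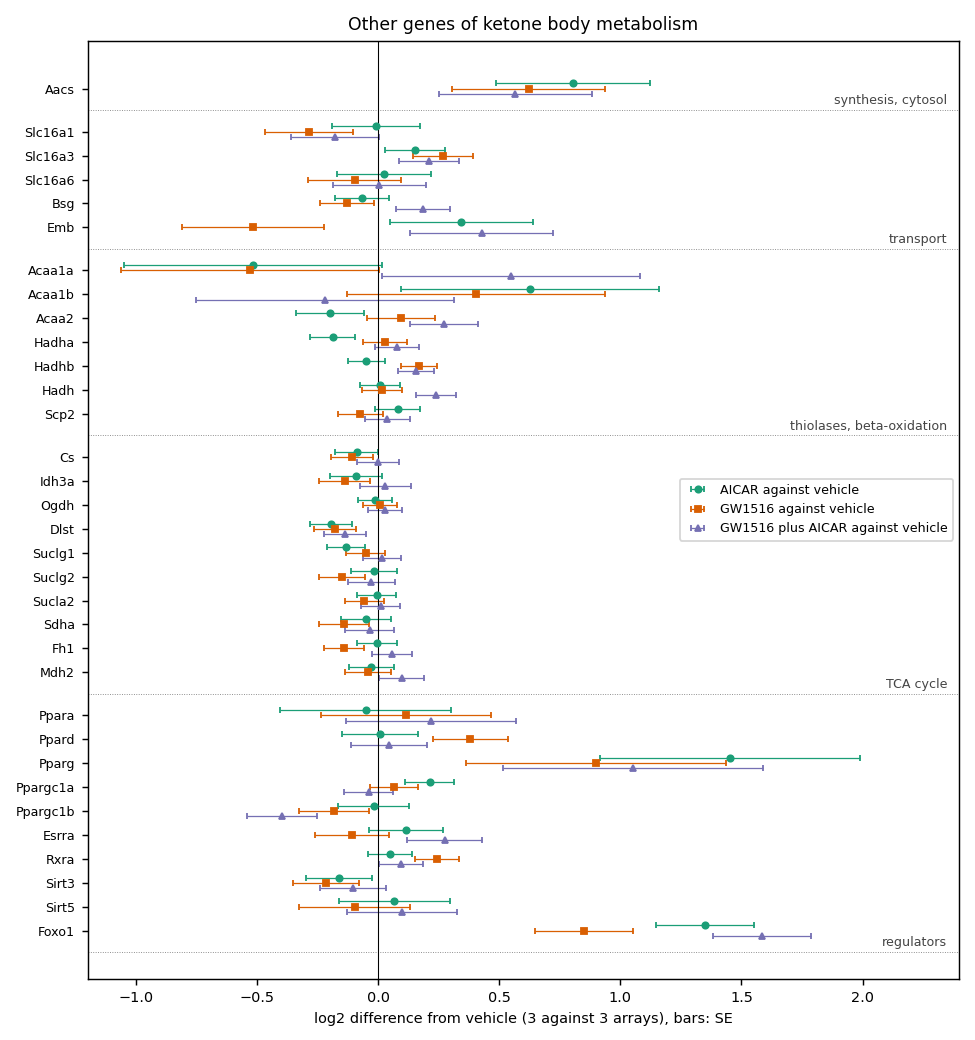
Log2 difference from vehicle (3 arrays against 3, whiskers ± SE) for the other genes of ketone body metabolism tested, grouped by role. Foxo1 and Pparg lie farthest above 0, and the 10 TCA cycle genes lie between -0.20 and 0.10.

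Markers of the tissue were checked beside the members. All 10 fast fibre and muscle markers were tested, with 0 of 10 called against vehicle and medians of 0.085 after AICAR, 0.12 after GW1516 and 0.20 after the combination. Their summed signal ran between 232124 and 234442 after AICAR, 216473 and 280007 after GW1516, and 250227 and 255675 after the combination, against 216339 and 227148 with vehicle. Of 8 slow fibre markers 7 were tested, with medians of 0.28, 0.040 and 0.18 in the same order and 0 of 7 called, and Myh7, the defining slow myosin, was below the filter. Of 7 fibroblast markers 0 were called after GW1516, and their median was -0.56. By array it was -0.22, -1.42 and 0.012 on GW1516 replicates 1, 2 and 3, and the brightest Oxct1 probe set was lowest on replicate 2. The part of fibre and fibroblast content in the Oxct1 and Bdh1 values was not tested. Of 4 hepatocyte markers Apoa1, Ttr and Cps1 were below the filter, and Alb had a mean signal of 56.8, with a difference of -0.15 ± 0.31 after GW1516 (adjusted p = 0.908).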

How the data were processed

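Quadriceps RNA was measured on 12 Affymetrix arrays, 3 for each of 4 groups. The authors made the deposited intensity values with MAS5, per the submitters' processing notes. There is 1 linear value per probe set, and on every array their trimmed mean is 200. No version of MAS5 is given in the sources used here. Symbols come from the array's annotation of 2016, and the gene ID of 34741 probe sets was found in RefSeq's gene table.

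Signals below 1 were set to 1 (3531 values), log2 was taken, and the 40% of probe sets with the lowest mean were left out. The brightest probe set stood for its gene. limma 3.58.1 in R 4.3.3 was fitted to all 12 arrays with a mean per group and a variance trend (8 residual and 5.91 prior degrees of freedom), with two-sided tests, Benjamini-Hochberg adjustment over all genes and 7 contrasts. A second fit took every probe set past the filter. The code was tested on simulated data. The members, lists and likeness rule were chosen with earlier results of these data known. Genes named were the members, called list genes, the 2 of smallest p per list and comparison, a few by role, and the 5 most correlated with each member; Rxra beside Oxct1, and the fibre genes set beside Bdh1 and Oxct1, were picked from the lists after their values were seen. Alternatives were other scalings, a pseudocount of 32, no filter or a filter of 60%, averaged probe sets, all probe sets, other variance models, only the groups compared, array weights, a block for replicate number, and omission of each array. Python 3.11.15 with matplotlib 3.10.9 drew the figures.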

Additional observations from a re-analysis of the deposited data

How the results depend on the processing

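None of the 3 genes was called by its brightest probe set, or by the mean of its probe sets, under the other settings, and 1 was called with an array left out: Oxct1 for GW1516 against vehicle, without GW1516 replicate 1. The numbers of genes called that moved by more than 1.5 times, or to or from 0, are these. For AICAR against vehicle the 1 gene became 4 with quantile normalization, a pseudocount of 32, the 60% filter, robust variances or the replicate block, 3 with all probe sets, 15 with array weights, 28 with only the groups compared and 0 with no trend. For GW1516 against vehicle the 12 became 7 with the mean of probe sets, 2 with only the groups compared and 0 with no trend. For the combination against vehicle the 33 became 18 with no filter, 79 with all probe sets, 92 with array weights, 16 with the replicate block and 2 with no trend. For the combination against AICAR the 4 became 2 with quantile normalization, median centring, no filter or the mean of probe sets, and 1 with all probe sets or the replicate block. The combination against GW1516 gave 1 with no trend in place of 0, and AICAR against GW1516 gave 20 with median centring and 2 with a pseudocount of 32 or array weights, in place of 0. Median centring moved the median of all genes by -0.12 for AICAR against vehicle, -0.11 for the combination against GW1516 and -0.15 for AICAR against GW1516. The causes were not tested.

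Some member values changed sign, each without a call. With the mean of probe sets, Oxct1 was 0.055 for AICAR and 0.0017 for the combination against vehicle and -0.053 for the combination against AICAR, and Acat1 was 0.017 for AICAR and -0.026 for GW1516 against vehicle, -0.0056 for the combination against AICAR and 0.042 for AICAR against GW1516. With quantile normalization, Acat1 was 0.0026 for AICAR against vehicle and Oxct1 -0.068 for the combination against AICAR. With median centring, Acat1 was -0.015 for the combination against vehicle and -0.11 against GW1516. With array weights, Bdh1 was -0.00056 for the combination against vehicle and Acat1 -0.017 for it against GW1516. Oxct1 probe set 1436750_a_at for GW1516 passed the threshold with a pseudocount of 32 (adjusted p = 0.0464), the 60% filter (0.0369), robust variances (0.0464), array weights (0.0493) and without GW1516 replicate 1 (0.0474).

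With each array left out, the numbers called ranged over 0 to 8 for AICAR, 0 to 41 for GW1516 and 10 to 95 for the combination against vehicle, 1 to 10 for the combination against AICAR, 0 to 10 for it against GW1516, 0 to 2 for AICAR against GW1516 and 0 to 0 for the interaction. Bdh1 ranged over 0.086 to 0.60 for AICAR, -1.34 to 0.47 for GW1516 and -0.25 to 0.97 for the combination against vehicle, -0.56 to 0.66 for the combination against AICAR, -0.25 to 1.56 for it against GW1516, -0.16 to 1.65 for AICAR against GW1516 and -0.56 to 1.25 for the interaction. Oxct1 ranged over -0.21 to -0.16, -0.52 to -0.25, -0.20 to -0.16, -0.022 to 0.031, 0.062 to 0.34, 0.059 to 0.33 and 0.25 to 0.52 in the same order. Acat1 ranged over -0.11 to 0.014, -0.018 to 0.10, -0.032 to 0.13, -0.00086 to 0.16, -0.090 to 0.073, -0.11 to -0.047 and -0.059 to 0.11 in that order.

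The correlation of deviations between same-numbered arrays of different groups was -0.11 to 0.069 over 18 pairs, 0 of them above 0.1. For differently numbered arrays of different groups it was -0.074 to 0.095 over 36 pairs. The signals thus showed no pairing by replicate number, and whether same-numbered arrays were handled together was not tested. With the replicate block, the Oxct1 difference for GW1516 was -0.37 and no member was called. Only 3 arrays per group and the width of the Bdh1 spread limit what can be detected, and Bdh1 1426959_at, below the filter, was not tested.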
